A study of Mus musculus with 9 samples.

Results

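The cytosolic heat shock chaperones examined here are 10 genes chosen by name: Hsp90aa1, Hsp90ab1, Hspa8, Hspa1a, Hspa1b, Hsph1, Dnaja1, Dnajb1, Hspb1 and Bag3. All 10 were found among the 22972 gene names of the expression files, and 9 of them were among the 10109 genes tested, Hspa1a being the one below the minimum level. In these B16 cells, no gene of the set differed between the treatment groups beyond the spread of the replicates. The inducible Hsp90 gene Hsp90aa1 nevertheless ranged from 4.66 to 169 FPKM over the 9 libraries, while its constitutive partner Hsp90ab1 stayed between 875 and 1271 FPKM.

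Chaperones of the cytosol bind unfolded or unstable proteins and help them to fold, to be held in solution or to be degraded. Hsp70 proteins bind short exposed stretches of a client with the help of J-domain partners, which deliver clients and stimulate ATP hydrolysis, and of nucleotide exchange factors, which release them. Hsp90 acts later, on kinases, steroid receptors and other clients that are nearly folded, and small heat shock proteins bind without ATP. Many of these genes have a basal level that every cell needs, and a further rise on stress that depends on the transcription factor HSF1, which binds inverted repeats of the bases GAA (heat shock elements) near their start sites. Tumor cells, melanoma included, are known to rely on Hsp90 for the stability of several oncogenic kinases.

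RNA was sequenced from B16, a mouse melanoma cell line labeled wild type, grown on a PDMS film in DMEM with 10% serum and collected on day 3. The 3 groups of 3 libraries were unstrained cells (CTL), cells under cyclic straining for 72 h (MS, mechanically stimulated) and cells given blebbistatin, an inhibitor of non-muscle myosin II, at 100 ng/mL for 72 h (Blebb). The labels of the Blebb samples name blebbistatin and no straining, whereas the paper describes a group that was strained with the inhibitor, so the group is called Blebb here without settling this point. The labels number parallel experiments and do not state separate cultures, so p-values measure the spread between these samples, which may be technical. Expression is given in FPKM, fragments scaled by transcript length and by the mapped fragments of a library, which can be compared between genes of different length.

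The labeled cell type was present by its markers, with all 7 melanocyte markers tested and summed to between 7444 and 12933 FPKM. Keratinocyte markers summed to at most 0.0363 FPKM, fibroblast markers to at most 0.567 FPKM, and macrophage markers to between 2.10 and 4.32 FPKM. CTL replicate 1, MS replicate 3 and Blebb replicate 2 stood apart from the other libraries in genes of the integrated stress response (10 genes), which summed to 1746, 1381 and 1755 FPKM there and to between 763 and 1113 FPKM in the other 6 libraries. Pmel, Tyr and Dct, 3 of the 7 melanocyte markers, were highest in the same 3 libraries, whereas Mlana and Mitf were lowest in CTL replicate 1 and Blebb replicate 2. Differences that rest on them are given with and without these libraries.

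Start-site sequences are shown for 4 of the genes, because they set the widely varying Dnaja1 and Hsph1 beside the nearly silent copies Hspa1a and Hspa1b. Each covers 250 bases before to 50 bases after an annotated start (RefSeq, GRCm38.p6), written 5′ to 3′ on the gene's strand, with capitals for heat shock element units. The positions are chr5:149636266-149636565 (minus strand) for Hsph1, chr4:40722218-40722517 (plus strand) for Dnaja1, chr17:34972107-34972406 (minus strand) for Hspa1a and chr17:34959189-34959488 (minus strand) for Hspa1b.
Hsph1: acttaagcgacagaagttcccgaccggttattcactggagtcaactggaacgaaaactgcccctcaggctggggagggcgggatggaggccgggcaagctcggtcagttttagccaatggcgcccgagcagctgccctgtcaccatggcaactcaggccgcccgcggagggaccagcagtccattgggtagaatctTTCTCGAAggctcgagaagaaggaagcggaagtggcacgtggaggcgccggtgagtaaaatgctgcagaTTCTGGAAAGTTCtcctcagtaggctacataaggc
Dnaja1: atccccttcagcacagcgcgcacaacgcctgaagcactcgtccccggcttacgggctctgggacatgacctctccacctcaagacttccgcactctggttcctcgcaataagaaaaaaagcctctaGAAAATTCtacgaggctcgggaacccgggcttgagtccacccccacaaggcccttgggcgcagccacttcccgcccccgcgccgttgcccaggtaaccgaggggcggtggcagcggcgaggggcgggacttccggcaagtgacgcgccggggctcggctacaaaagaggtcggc
Hspa1a: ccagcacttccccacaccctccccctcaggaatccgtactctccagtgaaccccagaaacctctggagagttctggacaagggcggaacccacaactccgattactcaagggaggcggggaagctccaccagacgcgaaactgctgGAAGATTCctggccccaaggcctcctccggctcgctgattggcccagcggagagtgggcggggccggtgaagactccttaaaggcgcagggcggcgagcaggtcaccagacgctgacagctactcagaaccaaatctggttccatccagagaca
Hspa1b: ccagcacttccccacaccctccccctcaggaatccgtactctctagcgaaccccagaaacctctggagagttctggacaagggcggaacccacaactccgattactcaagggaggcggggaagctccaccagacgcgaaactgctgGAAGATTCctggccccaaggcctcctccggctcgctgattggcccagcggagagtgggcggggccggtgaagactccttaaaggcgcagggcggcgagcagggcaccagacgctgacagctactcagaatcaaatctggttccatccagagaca
The capitals mark GAANNTTC or TTCNNGAA, searched on both strands, with overlapping matches joined. This motif was in at least 1 window of 6 of the 7 genes matched by symbol in the RefSeq table, all but Dnajb1. These 7 genes had 11 windows. Hsph1 had 2 windows, both with the motif, Dnaja1 had 3, of which 1 held it, and Dnajb1 had 2, of which 0 held it. The remaining genes had 1 window each, with the motif. Of all 32851 windows of the same length 15.1% held it, a share of windows and not of genes. A run of 3 alternating units in the same spacing was found in 0.603% of windows and, among the 7 genes, in Hsph1. In Hsph1 the matches lay at -54, 16 and 21 from the start, where the last 2 overlap and form that run. At the second annotated start of Hsph1, not shown, the same matches lay at -33, 37 and 42. In Dnaja1 the match lay at -124 of the start shown, and the windows of its other 2 annotated starts held none. The match lay at -104 in Hspa1a and Hspa1b, and matches lay in Hspb1 at -117 and -97, and in Bag3 at 43. The windows of Hspa1a and Hspa1b differed at 4 of 300 bases. A match is a stretch of letters and not a measured binding site.

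The genes differed widely in level, and part of their order changed between libraries. Hspa8, the constitutive Hsp70 of the cytosol, had the highest mean level of the 10 (1148 FPKM, rank 47 of the 22972 genes), followed by Hsp90ab1, the constitutive Hsp90 (1075 FPKM, rank 56). Hspa8 lay above Hsp90ab1 in 6 of 9 libraries, so these neighbors were not separated by their spread. Hsp90aa1 followed at a mean of 68.3 FPKM, below Hsp90ab1 in 9 of 9 libraries and above Bag3 in 6 of 9. In CTL replicate 1 (5.32 FPKM) and Blebb replicate 2 (4.66 FPKM) it lay also below Hsph1, Dnajb1 and Dnaja1. In MS replicate 3 (14.9 FPKM) it lay below Hsph1 and Dnaja1. Bag3, Dnaja1 and Hsph1 had means of 21.9, 21.0 and 20.9 FPKM and changed places from library to library, Bag3 above Dnaja1 in 5 of 9 and Dnaja1 above Hsph1 in 3 of 9. Dnajb1 lay below Hsph1 in 9 of 9 libraries at 12.7 FPKM. Hspb1 (1.80 FPKM) and Hspa1b (1.65 FPKM) were close to the minimum and in the same order in 7 of 9 libraries, and Hspa1a was lowest at 0.368 FPKM, below Hspa1b in 9 of 9 libraries. Summed over the 10 genes, the level was 1759, 2515 and 2839 FPKM in the CTL libraries, 2808, 2403 and 2067 FPKM in MS and 2557, 1727 and 2668 FPKM in Blebb, or 0.357% to 0.640% of all FPKM in a library. The groups overlapped in this sum, and the lowest libraries were CTL replicate 1 and Blebb replicate 2.

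**Figure D1:**
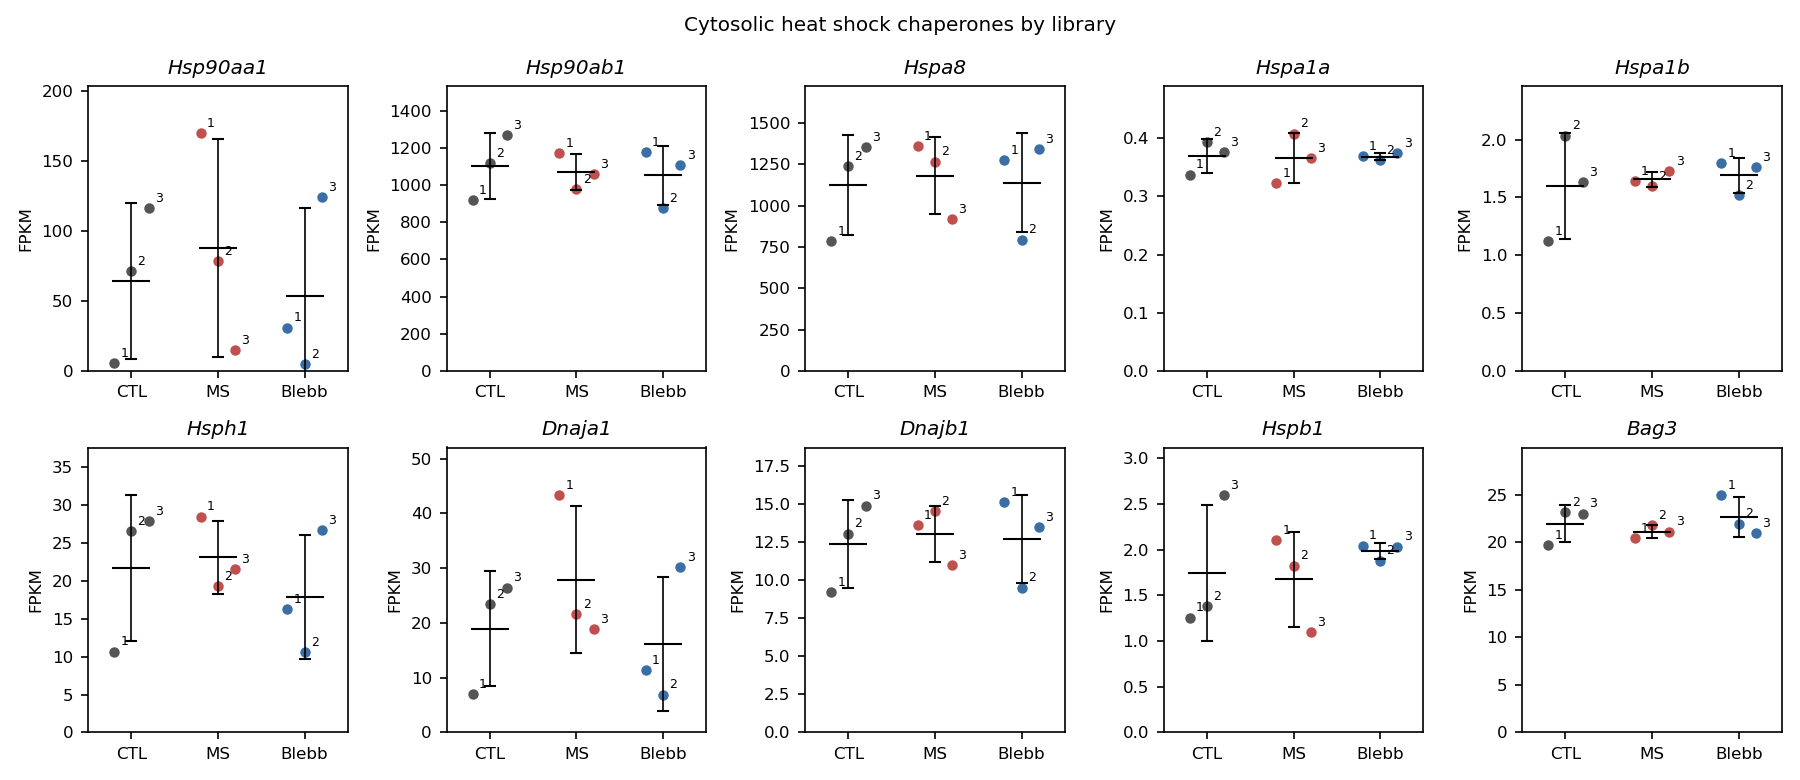
FPKM of the 10 chaperone genes (each with its own linear axis from 0) by group, with points for libraries labeled by replicate number and bars for mean ± SD (n = 3, cut at 0). Points of the 3 groups overlap in every panel, and Hsp90aa1 runs from 4.66 to 169 FPKM while Bag3 stays between 19.7 and 25.0 FPKM.

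Hsp90aa1 (chr12:110690605-110702728, minus strand), the stress-inducible of the 2 cytosolic Hsp90 genes, was at 5.32, 70.9 and 116 FPKM in CTL replicates 1 to 3, at 169, 78.1 and 14.9 FPKM in MS and at 30.8, 4.66 and 124 FPKM in Blebb. Each group thus held a library at 14.9 FPKM or below and one at 116 FPKM or above, and the groups overlapped throughout. The highest library of a group was 21.9-fold above the lowest in CTL, 11.3-fold in MS and 26.6-fold in Blebb. Group means were 64.2 ± 55.8, 87.5 ± 77.7 and 53.2 ± 62.8 FPKM (SD, n = 3), and the group accounted for 6.39% of the variance of the gene's log2(FPKM + 1) values, against a median of 12.7% over all genes tested.

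The range of Hsp90aa1 over the libraries, 4.91 on the log2(FPKM + 1) scale, was the third widest of the 10109 genes tested, whose median range was 0.68. Of the 10099 tested genes above 0 in every library, it ranked 1 by this range and 25 by the ratio of the highest to the lowest FPKM, a ratio on which genes of low level weigh more. The wider ranges belonged to the predicted genes Gm49909 and Gm20390, which were listed at 0 in some libraries and were looked up after the values were seen. With the trend of each library against GC content removed, the range of Hsp90aa1 was 4.10 and again ranked 3, of 9663 genes.

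**Figure D2:**
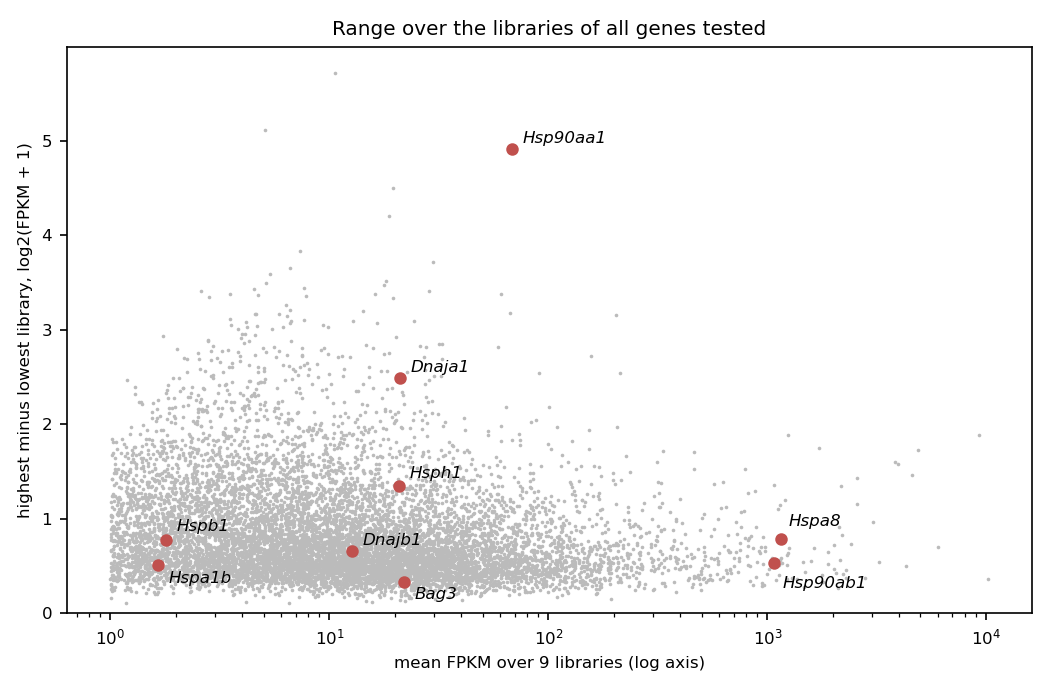
Range over the 9 libraries (highest minus lowest, log2(FPKM + 1)) against mean FPKM (log axis) for all 10109 genes tested, with the 9 tested chaperone genes in red. Hsp90aa1 stands near the top at 4.91, Dnaja1 at 2.49 and Hsph1 at 1.34 lie above the median of 0.68, and Bag3 lies near the bottom at 0.33.

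Hsp90ab1 (chr17:45567775-45573271, minus strand) was at 920, 1117 and 1271 FPKM in CTL, 1171, 978 and 1058 FPKM in MS and 1177, 875 and 1107 FPKM in Blebb, a 1.45-fold spread. The same libraries, CTL replicate 1 and Blebb replicate 2, were lowest for both Hsp90 genes, by a much smaller margin in Hsp90ab1. Hsp90aa1 made up 0.575%, 5.97% and 8.38% of the summed FPKM of the 2 genes in CTL, 12.6%, 7.39% and 1.39% in MS and 2.55%, 0.530% and 10.1% in Blebb. The coding sequences of the 2 genes are 75.3% identical. Of the stretches of 50 bases in the Hsp90aa1 transcript, 58.5% also occur in transcripts of other genes, mainly the pseudogenes Gm12346 and Gm5844, and 4.49% of those of Hsp90ab1 do, so the level of Hsp90aa1 is uncertain to the extent that the authors' counting shared such reads.

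The Hsp90aa1 to Hsp90ab1 ratio differed by 0.76 on the log2 scale between MS and CTL (p = 0.6), by -1.13 between Blebb and MS (p = 0.6) and by -0.37 between Blebb and CTL (p = 0.9; exact permutation tests, two-sided, n = 3, smallest possible p = 0.1). The design of 3 against 3 libraries cannot bring such a test below 0.05. Without the 3 libraries that stood apart, the differences were 0.50, -0.99 and -0.49, in the same directions. Leaving out CTL replicate 1 alone turned the first to -0.48, and leaving out Blebb replicate 2 alone brought the second to -0.011 and turned the last to 0.75.

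The 4 libraries with the lowest Hsp90aa1 were, in order, Blebb replicate 2, CTL replicate 1, MS replicate 3 and Blebb replicate 1, and they were in the same order the 4 with the highest sum of the integrated stress response genes, at 1755, 1746, 1381 and 1113 FPKM. The other 5 libraries lay between 763 and 885 FPKM in that sum, and MS replicate 1, the highest of all in Hsp90aa1, was also the highest of these 5 in the sum. Taken from low to high Hsp90aa1, these 5 libraries ranked 8, 9, 6, 7 and 5 from the highest in the sum, so the order of the first 4 did not extend to them. Ddit3, which encodes the stress factor CHOP and was picked after its values were seen, was at 137, 24.7 and 18.5 FPKM in CTL, 45.7, 25.8 and 99.1 FPKM in MS and 23.6, 131 and 22.4 FPKM in Blebb. Phgdh, a serine synthesis enzyme and the gene of that list with the highest mean, stayed between 283 and 419 FPKM. None of the 10 genes of this list passed an adjusted p of 0.05 in any comparison. The part of the stress response or of RNA quality in the range of Hsp90aa1 was not tested.

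**Figure D3:**
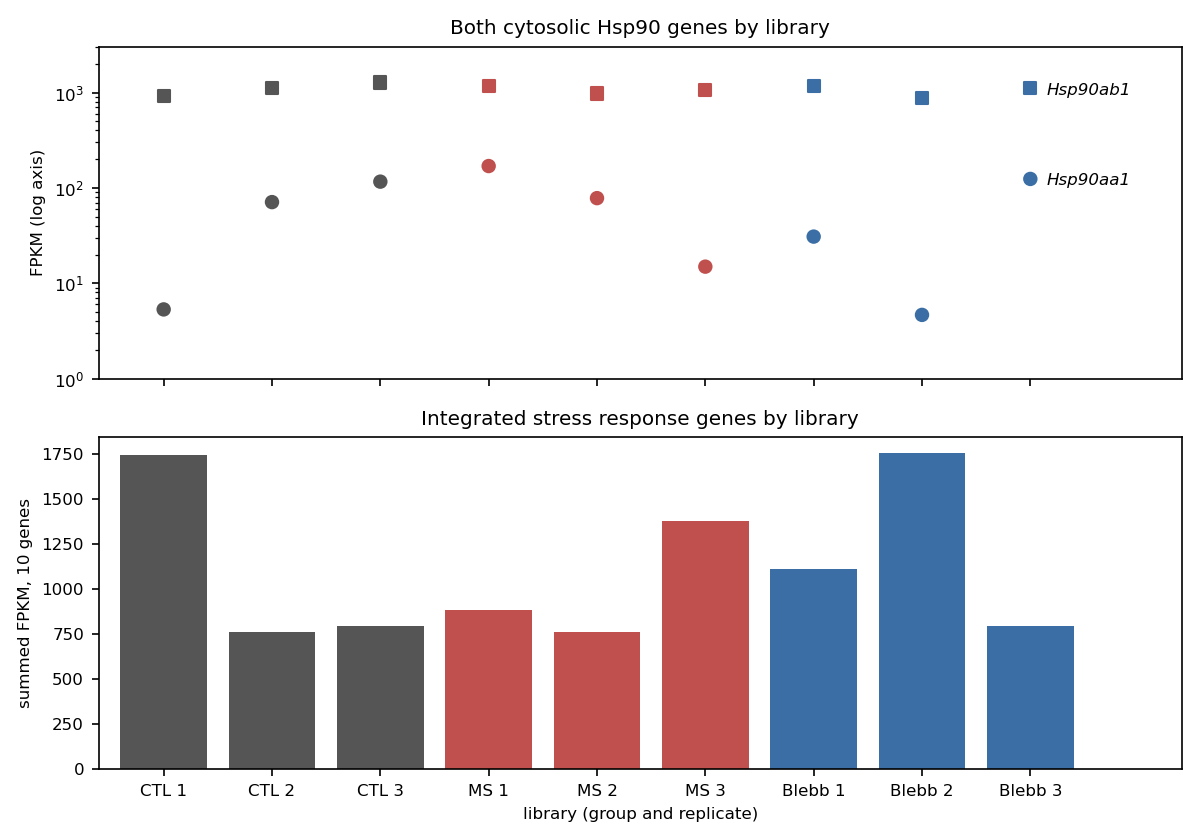
Upper panel: FPKM (log axis) of Hsp90ab1 (squares) and Hsp90aa1 (circles) in each of the 9 libraries. Lower panel: summed FPKM of the 10 integrated stress response genes in the same libraries. CTL 1, MS 3 and Blebb 2 have the tallest bars (1381 to 1755 FPKM) and the lowest Hsp90aa1 (4.66 to 14.9 FPKM), with Hsp90ab1 between 875 and 1058 FPKM in them.

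Hspa8 (chr9:40800984-40810087, plus strand), which folds new proteins and uncoats clathrin vesicles in unstressed cells, was at 784, 1237 and 1355 FPKM in CTL, 1358, 1266 and 918 FPKM in MS and 1277, 794 and 1341 FPKM in Blebb. CTL replicate 1, Blebb replicate 2 and MS replicate 3 were again the lowest libraries, over a 1.73-fold spread. Group means were 1125 ± 301, 1181 ± 232 and 1137 ± 299 FPKM (SD, n = 3). Of its 50-base stretches, 74.8% are shared with other transcripts, mainly processed pseudogenes such as Gm15459, and snoRNA genes such as Snord14c lie within its span on the same strand.

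Hspa1b (chr17:34956436-34959238, minus strand) and Hspa1a (chr17:34969190-34972156, minus strand) encode the classical inducible Hsp70 and are neighboring copies with 99.4% identical coding sequences. Hspa1b was at 1.12, 2.03 and 1.63 FPKM in CTL, 1.64, 1.60 and 1.73 FPKM in MS and 1.80, 1.52 and 1.76 FPKM in Blebb. Hspa1a was at 0.337, 0.394 and 0.376 FPKM in CTL, 0.322, 0.408 and 0.365 FPKM in MS and 0.369, 0.362 and 0.375 FPKM in Blebb. Both inducible copies thus stayed at a low level under straining and under blebbistatin, and Hspa8 was 423-fold to 692-fold above their sum.

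The split of reads between Hspa1a and Hspa1b is uncertain, because 62.3% of the 50-base stretches of Hspa1b are shared, all of that fraction with Hspa1a. Whether the authors' counting left out shared reads, which would lower both copies, is not known. Gm20481 overlaps Hspa1a on the opposite strand and shares 16.2% of the stretches of Hspa1a and 10.8% of those of Hspa1b. The sum of the 2 copies does not depend on the split between them and ranged from 1.46 to 2.43 FPKM. The sum was compared on the log2(FPKM + 1) scale, which understates changes at such low levels. It differed by 0.040 between MS and CTL (p = 0.9), by 0.017 between Blebb and MS (p = 0.8) and by 0.058 between Blebb and CTL (p = 0.8, exact permutation tests, two-sided, n = 3). Without the 3 libraries that stood apart, the first and the last turned to -0.11 and -0.027. Hspa1a alone differed by at most 0.0044 in size on the log2(FPKM + 1) scale, with p between 0.8 and 0.9 in the same exact permutation test.

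Dnaja1 (chr4:40722150-40737149, plus strand), a farnesylated J-domain partner of Hspa8, was at 6.92, 23.5 and 26.5 FPKM in CTL, 43.4, 21.6 and 18.9 FPKM in MS and 11.4, 6.89 and 30.1 FPKM in Blebb. It varied 6.29-fold, and its range of 2.49 ranked 144 of 10109 genes. The MS libraries lay at 18.9 FPKM or above, but CTL replicates 2 and 3 and Blebb replicate 3 lay within the MS values, so the groups overlapped. With the GC trend removed its range was 1.44 and its rank 436 of 9663. The neighboring gene Smu1 overlaps Dnaja1 and shares 10.0% of its 50-base stretches.

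Hsph1 (chr5:149614287-149636376, minus strand), the Hsp110 protein that exchanges nucleotides on Hsp70 and holds unfolded clients, was at 10.7, 26.6 and 27.9 FPKM in CTL, 28.5, 19.3 and 21.5 FPKM in MS and 16.3, 10.6 and 26.7 FPKM in Blebb. CTL replicate 1 and Blebb replicate 2 were lowest for Hsph1 and Dnaja1 alike, and MS replicate 1 was highest for both. Its spread was 2.69-fold, against 6.29-fold in Dnaja1, at nearly the same mean level.

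Dnajb1 (chr8:83608193-83612653, plus strand), the J-domain protein that works with Hsp70 in refolding and is a strong HSF1 target, was at 9.24, 13.1 and 14.9 FPKM in CTL, 13.6, 14.6 and 11.0 FPKM in MS and 15.1, 9.51 and 13.5 FPKM in Blebb. Its lowest libraries were the 3 that were lowest for Hsp90aa1 and Hspa8, but its spread was 1.64-fold.

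Bag3 (chr7:128523616-128546981, plus strand), an Hsp70 co-chaperone that exchanges nucleotides and directs clients, among them filamin damaged under tension, to autophagy, was at 19.7, 23.2 and 23.0 FPKM in CTL, 20.5, 21.8 and 21.1 FPKM in MS and 25.0, 22.0 and 21.0 FPKM in Blebb. It was the steadiest of the 9 genes tested, with a range of 0.33 that ranked 9548 of 10109 genes. MS (21.1 ± 0.676 FPKM) and CTL (22.0 ± 1.97 FPKM, SD, n = 3) overlapped. Hspb1 (chr5:135887919-135889563, plus strand), the small heat shock protein Hsp25 of the mouse, which binds unfolded clients and actin filaments, was at 1.25, 1.38 and 2.60 FPKM in CTL, 2.10, 1.82 and 1.10 FPKM in MS and 2.04, 1.88 and 2.03 FPKM in Blebb. It shares 51.6% of its 50-base stretches with the pseudogene Hsp25-ps1. The highest and lowest Hspb1 values were in CTL replicate 3 and MS replicate 3, and the Blebb libraries lay between them.

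The same libraries were low in most of the genes, whatever their group. CTL replicate 1 and Blebb replicate 2 were the 2 lowest libraries in 7 of the 9 genes tested, all but Bag3 and Hspb1, and in 25.1% of all genes tested. They were joined by MS replicate 3 as the 3 lowest in 3 genes (Hsp90aa1, Hspa8 and Dnajb1) and in 16.1% of all genes, and MS replicate 1 was the highest in 4 genes (Hsp90aa1, Hspa8, Hsph1 and Dnaja1) and in 28.7% of all genes. The 9 genes come from the same libraries and are not independent replicates of this order.

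The 3 genes of lowest transcript GC content, Dnaja1 (41.2%), Hsp90aa1 (43.7%) and Hsph1 (47.4%), were also the 3 with the widest range. For each library, the deviation of genes from their own means over the 9 libraries was fitted against GC content (9663 genes, log2(FPKM + 1)). It rose by 0.32 per 10% of GC in CTL replicate 1 and by 0.41 in Blebb replicate 2, where the 3 genes were lowest. In MS replicate 1, where they were highest, it fell by 0.41 for each 10%. MS replicate 3 had a slope of -0.078 and Hsp90aa1 at 14.9 FPKM. The slope was 0.22 in Blebb replicate 1 (Hsp90aa1 at 30.8 FPKM), 0.021 in MS replicate 2 (78.1) and -0.061 in CTL replicate 2 (70.9). It was -0.19 in CTL replicate 3 (116) and -0.24 in Blebb replicate 3 (124). With the GC trend removed the 3 genes still had the widest ranges, at 4.10 for Hsp90aa1, 1.44 for Dnaja1 and 1.05 for Hsph1 against a median of 0.58 over all genes.

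**Figure D4:**
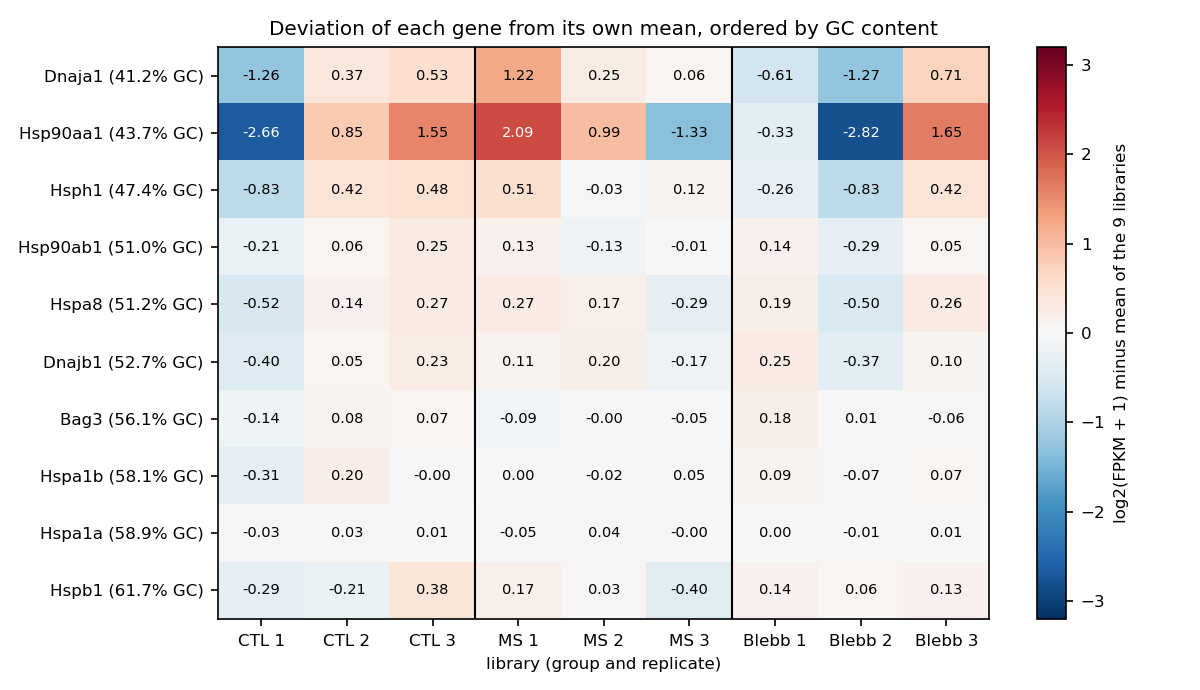
Deviation of each chaperone gene from its own mean (log2(FPKM + 1), color and printed value) in the 9 libraries, with genes ordered from low to high transcript GC content. The columns of CTL 1 and Blebb 2 are below 0 for the upper 3 rows, down to -2.66 and -2.82 for Hsp90aa1, and lie between -0.52 and 0.06 in the lower 7 rows.

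The genes most like the 3 of widest range were named by the root mean square difference of their centered log2 values over the 9 libraries, among 6997 genes of at least 5 FPKM. For Hsp90aa1 they were Ssb (the RNA-binding La protein) at 0.35, Dek at 0.53 and Top2a at 0.58, against a median of 1.76 for all candidates. Ssb was at 1.19, 23.5 and 30.6 FPKM in CTL, 48.9, 23.0 and 3.92 FPKM in MS and 9.69, 2.54 and 31.4 FPKM in Blebb, so its lowest 4 libraries were those of Hsp90aa1. For Dnaja1 they were Zranb2, Actr2 and Strn3 (0.12 to 0.13, median 0.83), and for Hsph1 they were Thrap3, Nup153 and Agps (0.073 to 0.077, median 0.52). No gene of the chaperone set was among the 9 named, since members were left out of the candidates.

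The first comparison asked whether cyclic straining changes the chaperone genes. Of the 9 genes tested, 0 differed between MS and CTL at an adjusted p under 0.05 (0% of all genes tested), 0 at an unadjusted p under 0.05 (0.158% of all genes), and in 0 did the groups not overlap (3.17% of all genes). The differences were largest for Hsp90aa1, at 0.67 on the log2(FPKM + 1) scale (95% interval -2.49 to 3.83), and for Dnaja1, at 0.63 (-0.73 to 1.99). Hsph1 differed by 0.18 (-0.73 to 1.08), Hspa8 by 0.088 (-0.54 to 0.71) and Dnajb1 by 0.085 (-0.41 to 0.58). Hsp90ab1 differed by -0.036 (-0.42 to 0.35) and Bag3 by -0.051 (-0.32 to 0.22). The adjusted p was 1.00 for every gene of the set in limma, adjusted over the whole table by the Benjamini-Hochberg method. The values were above 0 in 6 of 9 genes (49.5% of all genes), with a median of 0.085 against -0.0018 over all genes.

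The intervals bound what this design leaves possible. For Bag3, Hsp90ab1, Hspa8 and Dnajb1 a change of 2-fold under straining lay outside the interval, while for Hsp90aa1 the interval held changes of more than 4-fold in either direction. Without CTL replicate 1 the Hsp90aa1 difference was -0.62, and without MS replicate 3 it was 1.63. Without all 3 libraries that stood apart it was 0.34 for Hsp90aa1, 0.29 for Dnaja1 and -0.21 for Hsph1, which turned. In bulk RNA, fewer cells expressing a gene and less RNA per cell cannot be told apart.

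The second comparison set blebbistatin against straining. Again 0 of 9 genes passed the adjusted threshold (0% of all genes tested), 0 the unadjusted one (1.25% of all genes), and 0 had groups without overlap (3.73% of all genes). Hsp90aa1 was at -1.08 in Blebb against MS (-4.24 to 2.07), Dnaja1 at -0.90 (-2.26 to 0.46) and Hsph1 at -0.43 (-1.33 to 0.48), with adjusted p between 0.897 and 0.987 over the 9 genes in limma. Values were above 0 in 3 of 9 genes (49% of all genes), and their median was -0.051 against -0.0059 over all genes. Dnaja1 had the smallest unadjusted p of the set and was below 0 with each library left out in turn, between -1.45 and -0.46. Without Blebb replicate 3 its unadjusted p fell under 0.05, as did that of 934 of all 10109 genes, with an adjusted p of 0.450 in limma. Hsp90aa1 moved to 0.076 without Blebb replicate 2 and to -2.16 without Blebb replicate 3, and was -0.88 without the 3 libraries that stood apart.

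Between Blebb and CTL, 0 of 9 genes passed the adjusted threshold (0% of all genes tested), 0 the unadjusted one (0.089% of all genes), and 0 had groups without overlap (2.08% of all genes). Hsp90aa1 was at -0.41 (-3.57 to 2.74), Dnaja1 at -0.27, Hsph1 at -0.25 and Hspb1 at 0.15, and the adjusted p was 1.00 for all 9 genes in limma. Values were above 0 in 5 of 9 genes (46% of all genes), with a median of 0.016 against -0.013 over all genes. The 3 comparisons share their libraries in pairs, so their values are not independent. Hsp90aa1 was -1.70 without CTL replicate 1 and 0.75 without Blebb replicate 2. The summed FPKM of the 10 genes differed by 0.051, -0.081 and -0.031 on the log2 scale in the 3 comparisons (p = 1, 0.8 and 0.8, exact permutation tests, two-sided, n = 3).

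**Figure D5:**
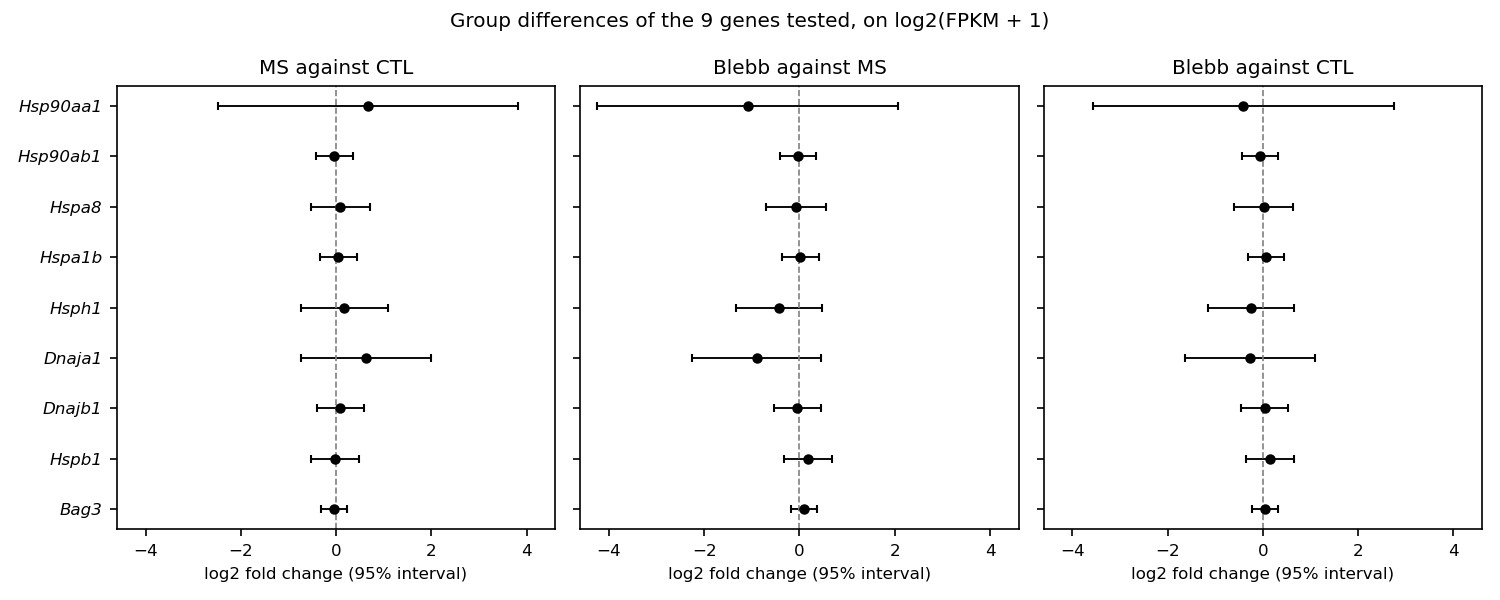
Log2 fold change on the log2(FPKM + 1) scale of the 9 tested chaperone genes in the 3 comparisons, with points for the limma estimate and bars for its 95% interval (3 libraries a group). Every interval spans 0, and the bars of Hsp90aa1 (-2.49 to 3.83 in MS against CTL) are far wider than those of Bag3 (-0.32 to 0.22).

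The wider chaperone system, 8 lists of 85 genes of which 76 were tested, held 0 genes past the adjusted threshold in any comparison and 0 past the unadjusted one. Groups did not overlap in 0 of the 76 genes in MS against CTL (3.17% of all genes) and in 1 each in Blebb against MS (3.73%) and in Blebb against CTL (2.08%), in both cases Dnaja3, a mitochondrial J-domain protein singled out after its values were seen. Dnaja3 was at 23.0, 28.7 and 28.4 FPKM in CTL, 26.4, 26.7 and 24.0 FPKM in MS and 29.8, 31.9 and 30.0 FPKM in Blebb, with adjusted p of 0.897 and 1.00 in limma. CTL replicate 1 and Blebb replicate 2 were the 2 lowest libraries in 29 of the 76 genes (38.2%), beside the 25.1% of all genes given above.

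Hsf1, the master regulator of heat shock genes, ranged from 29.8 to 41.6 FPKM over the libraries, and 0 of the 3 heat shock factors tested passed the adjusted threshold. Bag6, which guards membrane proteins in the cytosol, led the 12 tested genes of the Hsp70 and exchange factor list at 126 to 160 FPKM, and Dnaja2 led the 13 further J-domain proteins at 30.1 to 57.3 FPKM. Those J-domain proteins had a median difference of 0.18 in MS against CTL and -0.25 in Blebb against MS, with 9 of 13 and 3 of 13 values above 0 (49.5% and 49% of all genes). Without the 3 libraries that stood apart, the medians were 0.050 and -0.19, with 8 and 4 of 13 above 0 (38.2% and 47.5% of all genes). In Blebb against CTL the median was -0.087, with 2 of 13 above 0 (46% of all genes). Without the 3 libraries it was -0.12, with 1 of 13 above 0 (35.8% of all genes). The comparisons with MS share its libraries, so their opposite signs are not independent.

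Fkbp4, an immunophilin that binds Hsp90 with steroid receptors, was the most abundant of the 19 Hsp90 co-chaperones at 312 to 467 FPKM. In 11 of these 19 genes CTL replicate 1 and Blebb replicate 2 were the lowest libraries (25.1% of all genes tested). Cacybp, the co-chaperone of widest range and named after its values were seen, was at 7.21, 38.1 and 41.5 FPKM in CTL, 58.3, 38.5 and 15.9 FPKM in MS and 26.6, 7.71 and 50.5 FPKM in Blebb, with its lowest 4 libraries those of Hsp90aa1. Cryab, the lens and muscle crystallin, was the main small heat shock protein of these cells at 410 to 496 FPKM, far above Hspb1. Of the 4 tested genes of its list, 0 had CTL replicate 1 and Blebb replicate 2 lowest (25.1% of all genes tested), too few genes to tell apart from that share.

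Among folding machines that act beside Hsp70 and Hsp90, Cct7 led the 8 subunits of the TRiC chaperonin at 351 to 411 FPKM, and the subunits had a median difference of 0.20 in MS against CTL, 7 of 8 above 0 (49.5% of all genes), and of -0.29 in Blebb against MS, 2 of 8 above 0 (49% of all genes). Without the 3 libraries these medians were 0.088 and -0.082, with 7 and 1 of 8 above 0 (38.2% and 47.5% of all genes). In Blebb against CTL the TRiC median was -0.081, with 3 of 8 above 0 (46% of all genes). Without the 3 libraries it was -0.012, again with 3 of 8 above 0 (35.8% of all genes). Pfdn5 led the 6 prefoldin subunits, which hand actin and tubulin to TRiC, at 111 to 174 FPKM. Hspe1, the cofactor of the mitochondrial chaperonin, led the 10 mitochondrial chaperones at 139 to 251 FPKM. Their median differences were -0.017 in MS against CTL and 0.072 in Blebb against MS, and -0.057 and -0.019 without the 3 libraries. In Blebb against CTL their median was 0.041, or -0.0024 without the 3 libraries. The medians of all genes tested were -0.0018 in MS against CTL, -0.0059 in Blebb against MS and -0.013 in Blebb against CTL. Without the 3 libraries they were -0.046, -0.011 and -0.044. Of these lists, 0 genes passed the adjusted threshold in limma.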

How the data were processed

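RNA from 9 B16 samples (3 groups of 3) was extracted with TRIzol, prepared with the SMARTER mRNA-Seq kit and sequenced by the authors, who deposited an FPKM value per gene and library, already scaled by transcript length and mapped fragments. For CTL replicate 1 the column carries a sample name instead of a unit and was taken as FPKM. The submitters' processing notes name GRCm38 and mm10. The aligner, the counting program and the annotation are not given in the sources used here. Depth is unknown, so no counting interval is given, and precision rests on the spread between replicates. The columns summed to between 439939 and 484093 FPKM.

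Values were used as log2(FPKM + 1), a scale that understates changes of low genes. Genes averaging 1 FPKM or more over the 9 libraries (10109) were fitted in limma 3.58.1 (R 4.3.3, lmFit on 3 groups, eBayes with a mean-variance trend), with two-sided tests, Benjamini-Hochberg adjustment over these genes and a threshold of 0.05. Ratios, sums and Hspa1a were compared by exact permutation tests (scipy 1.17.1). The Hsp90 ratio and the sum of the 10 genes were taken as log2 with nothing added, the Hspa1a plus Hspa1b sum as log2(FPKM + 1). The limma fit was tested on simulated data with independent noise for each gene, and the permutation test on fixed example values. Gene positions, GC content (9663 of 10109 genes), shared 50-base stretches and coding sequences came from GENCODE M21 transcripts (GRCm38), and start-site windows from RefSeq (GRCm38.p6), where 7 of the 10 genes were matched by symbol.

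Named genes were the 10 chosen, in each further list the gene of highest mean and any past the threshold, and for the 3 genes of widest range the 3 genes most like each, with other names marked in the text. The members, lists and tests were chosen with earlier results of these data known. Alternatives were no minimum or one of 5 FPKM, a pseudocount of 0.1, median-of-ratios factors (0.941 to 1.06), quantile normalization, GC trend removal (loess, span 0.5), no trend, only the 2 groups compared, a replicate block, each library left out, and 3 libraries left out together.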

Additional observations from a re-analysis of the deposited data

How the results depend on the processing

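No gene of the set passed an adjusted p of 0.05 in limma under any alternative. Over all genes tested the count past that threshold was 0 throughout, except without MS replicate 2, which gave 1 gene (Gm49527) in MS against CTL and in Blebb against MS, so that leaving out a replicate gave 0 to 1 genes there and 0 in Blebb against CTL. Apart from leaving out libraries, direction was kept in 78 of 81, 79 of 81 and 79 of 81 values of the 10 genes in MS against CTL, Blebb against MS and Blebb against CTL, and with a single library left out in 47, 50 and 40 of 60. A changed minimum, no trend, the replicate block and only the 2 groups compared leave the log2 fold change of a gene as it was. Their values are counted among the 81 and could not turn, so these counts overstate how firm the directions are. Deviations of same-numbered samples from their group means were not alike throughout (r between -0.78 and 0.84). Whether same-numbered samples were run together cannot be told from these values. With the replicate block 0 genes passed the adjusted threshold in each comparison and 14, 119 and 10 the unadjusted one.

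Apart from single libraries left out, the values that turned lay between -0.21 and 0.095. Single libraries left out turned larger values, such as Hsp90aa1 in MS against CTL, from 0.67 to -0.62 without CTL replicate 1. With quantile normalization Hspa1b was -0.020 in MS against CTL and Hspa8 -0.037 in Blebb against CTL. With the GC trend removed Hspb1 was 0.095 and Bag3 0.034 in MS against CTL, and Hspa1b -0.12 and Bag3 -0.024 in Blebb against MS. With median-of-ratios factors Hspa1a was 0.0076 in Blebb against CTL. Without CTL replicate 1, MS replicate 3 and Blebb replicate 2 together, MS against CTL gave -0.11 for Hspa1b, -0.21 for Hsph1, 0.016 for Hspb1, -0.11 for the Hspa1a plus Hspa1b sum and -0.041 for the summed FPKM. Blebb against MS then gave 0.093 for Hsp90ab1, 0.020 for Dnajb1 and 0.0077 for the summed FPKM, and Blebb against CTL gave -0.024 for Hspa1b, -0.011 for Bag3 and -0.027 for the Hspa1a plus Hspa1b sum. The cause was not tested. Depth is unknown, and Hspa1a, Hspa1b and Hspb1 lie near the minimum, where a difference is hard to detect.

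With each library left out in turn, the following values changed direction, and their lowest and highest values are given. In MS against CTL they were -0.62 to 1.63 for Hsp90aa1, -0.16 to 0.073 for Hsp90ab1, -0.15 to 0.26 for Hspa8, -0.090 to 0.17 for Hspa1b, -0.25 to 0.41 for Hsph1, -0.097 to 0.22 for Dnajb1, -0.15 to 0.19 for Hspb1, -0.48 to 1.74 for the Hsp90aa1 to Hsp90ab1 ratio, -0.088 to 0.15 for the Hspa1a plus Hspa1b sum, -0.15 to 0.19 for the summed FPKM and -0.027 to 0.018 for Hspa1a. In Blebb against MS they were -2.16 to 0.076 for Hsp90aa1, -0.12 to 0.099 for Hsp90ab1, -0.24 to 0.17 for Hspa8, -0.010 to 0.065 for Hspa1b, -0.18 to 0.13 for Dnajb1, -0.0077 to 0.061 for the Hspa1a plus Hspa1b sum, -0.20 to 0.12 for the summed FPKM and -0.019 to 0.026 for Hspa1a. In Blebb against CTL they were -1.70 to 0.75 for Hsp90aa1, -0.19 to 0.063 for Hsp90ab1, -0.22 to 0.26 for Hspa8, -0.072 to 0.19 for Hspa1b, -0.67 to 0.055 for Hsph1, -0.84 to 0.17 for Dnaja1, -0.15 to 0.21 for Dnajb1, -0.030 to 0.093 for Bag3, -1.61 to 0.75 for the Hsp90aa1 to Hsp90ab1 ratio, -0.071 to 0.17 for the Hspa1a plus Hspa1b sum, -0.23 to 0.17 for the summed FPKM and -0.017 to 0.012 for Hspa1a. Most of the extremes came without CTL replicate 1 or Blebb replicate 2.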
